A study of Sus scrofa with 20 samples.

Results

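SLPI, SFTPD and DMBT1 encode secreted proteins that defend mucosal surfaces. Their transcripts were measured here by every probe set whose platform annotation gives 1 of these 3 symbols, which were 4 of the 24123 probe sets of the Affymetrix Porcine Genome Array. SLPI and DMBT1 had 1 probe set each. SFTPD had 2, of which the ID of one ends in _at, the array's suffix for probes that match a single transcript, and that of the other in _s_at, the suffix for probes shared by several transcripts. They are written here as SFTPD (_at) and SFTPD (_s_at). The genes were picked because they rose from S28D to the arrays labelled S35D, so that comparison and the others that use S28D or S35D are given as descriptions, with no test. All 4 probe sets passed the filter on dim signals (a value of 4 log2 units reached by 3 or more arrays), and their lowest value in any array was 5.21.

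Each of the 20 arrays held RNA from the scraped ileal mucosa of 1 crossbred (Landrace × Large white × Duroc) piglet. Suckling piglets, kept away from the diet of the sow, were sampled at 14, 21, 28 and 35 days of age (S14D, n = 3; S21D, n = 4; S28D, n = 4; S35D, n = 3). Piglets weaned at 21 days of age onto a commercial diet were sampled at 28 days (21W28D, 7 days after weaning, n = 3) and at 35 days (21W35D, 14 days after weaning, n = 3). The litter of each piglet is not given, and scraped mucosa mixes epithelium with immune and stromal cells, so that fewer cells of a type and less RNA per cell cannot be told apart.

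The secretory leukocyte protease inhibitor SLPI blocks serine proteases released by neutrophils and also acts on microbes. Surfactant protein D, the product of SFTPD, is a collectin, a soluble lectin that binds sugars on microbial surfaces through its C-type lectin domain and is best known from the lung. DMBT1 encodes a large secreted glycoprotein built of scavenger receptor cysteine-rich domains, which aggregates bacteria, is made by mucosal epithelia and binds surfactant protein D.

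Array medians ran from 5.07 to 5.35 log2 units, and 41.6% of all values lay within 1 unit of the lowest value, 2.08. The lowest correlation of an array with the rest of its own group was 0.97, in 21W35D replicate 2. Some arrays correlated more with another group than with the rest of their own. Among them was S14D replicate 1, at 0.988 with S21D and 0.986 with its own group. FABP6, the bile acid carrier of ileal enterocytes, lay between 13.27 and 16.07 in all 20 arrays. Of 6 measured enteroendocrine markers 5 reached 4 log2 units in some array. SST lay between 9.63 and 12.19 and GCG between 9.58 and 12.22, while CHGA stayed at or under 2.46. Doubt attaches to 2 group labels. Each of the 3 S35D arrays lay nearer to the mean profile of 21W35D than to the S28D mean. Of the 3 arrays with the 21W28D label, 2 lay nearer to S28D than to 21W35D. In both cases the nearer group had the same age by label, so nearness alone cannot decide about the labels. The paper reports few changed genes between the oldest suckling groups, and many between the younger weaned group and suckling piglets of its age. Here the order was the reverse. At an unadjusted p under 0.05 (limma), 5600 tested probe sets differed between S28D and the arrays labelled S35D. Between S28D and the arrays labelled 21W28D, 451 differed. Both groups are therefore called by their label, and each result on them is also given with these labels exchanged.

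SLPI was high in the youngest piglets. Its values in the S14D arrays were 13.56, 14.86 and 14.96 log2 units. The S21D arrays split into a low pair at 10.11 and 9.94 and a high pair at 12.91 and 13.25. All S28D arrays, at 10.43, 8.28, 8.59 and 10.98, were below every S14D array. The arrays labelled S35D were high again, at 14.19, 13.31 and 14.08. Those labelled 21W28D were at 11.87, 10.28 and 8.81, and those of 21W35D at 11.02, 13.49 and 12.20. By group mean the order ran from S14D (14.46 ± 0.78, SD, n = 3) through S35D, 21W35D, S21D and 21W28D to S28D (9.57 ± 1.34, SD, n = 4). Each group overlapped with the next in this order.

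SFTPD was set apart by 1 group. On the _at probe set the arrays labelled S35D were at 11.41, 10.63 and 10.86 log2 units, above each of the other 17 arrays, whose highest value was 9.20. The S14D arrays came next at 7.99, 9.20 and 8.89. S21D lay at 8.12, 8.22, 5.41 and 7.35, and S28D at 8.03, 5.29, 7.36 and 6.41. These groups overlapped, and each held 1 piglet whose value was near 5. The arrays labelled 21W28D ran over a wide range (8.41, 6.35 and 5.21), whereas those of 21W35D lay close together at 7.10, 7.997 and 7.61. In the order of group means, from S35D (10.97 ± 0.40, SD, n = 3) to 21W28D (6.66 ± 1.62, SD, n = 3), the gap between S35D and S14D was the only one between neighbours whose arrays did not overlap.

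SFTPD (_s_at) gave the same picture over a smaller range. It stood at 10.01, 9.03 and 9.81 in the arrays labelled S35D, and no other array exceeded 7.74. S14D was again second, at 6.37, 7.43 and 7.74. The values of S21D (5.78, 6.44, 5.33 and 5.68) and S28D (5.88, 5.30, 5.76 and 5.44) were packed together. The arrays labelled 21W28D were at 6.73, 5.62 and 5.33 and those of 21W35D at 5.73, 6.54 and 6.23. S21D replicate 3 and 21W28D replicate 3 had the same value of 5.33, close to the lowest value of this probe set. Group means ran from 9.62 ± 0.52 (SD, n = 3) in S35D and 7.18 ± 0.72 (SD, n = 3) in S14D down to 5.59 ± 0.27 (SD, n = 4) in S28D, and below S14D every neighbouring pair overlapped.

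DMBT1 was high in 2 groups and separated them from all others. The S14D arrays were at 12.54, 12.75 and 13.46 log2 units and the arrays labelled S35D at 13.51, 12.38 and 13.28. These 6 arrays overlapped one another and lay above the other 14. S21D was at 10.25, 10.23, 8.28 and 10.10, with replicate 3 well below the rest, and S28D was split between 7.89 and 7.66 on one side and 10.88 and 10.20 on the other. The arrays labelled 21W28D were the lowest group, at 8.48, 8.01 and 7.08, and those of 21W35D were at 8.87, 11.53 and 9.71. Mean levels were 13.06 ± 0.60 (SD, n = 3) in S35D and 12.92 ± 0.48 (SD, n = 3) in S14D, and the next group, 21W35D, stood at 10.04 ± 1.36 (SD, n = 3).

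**Figure D1:**
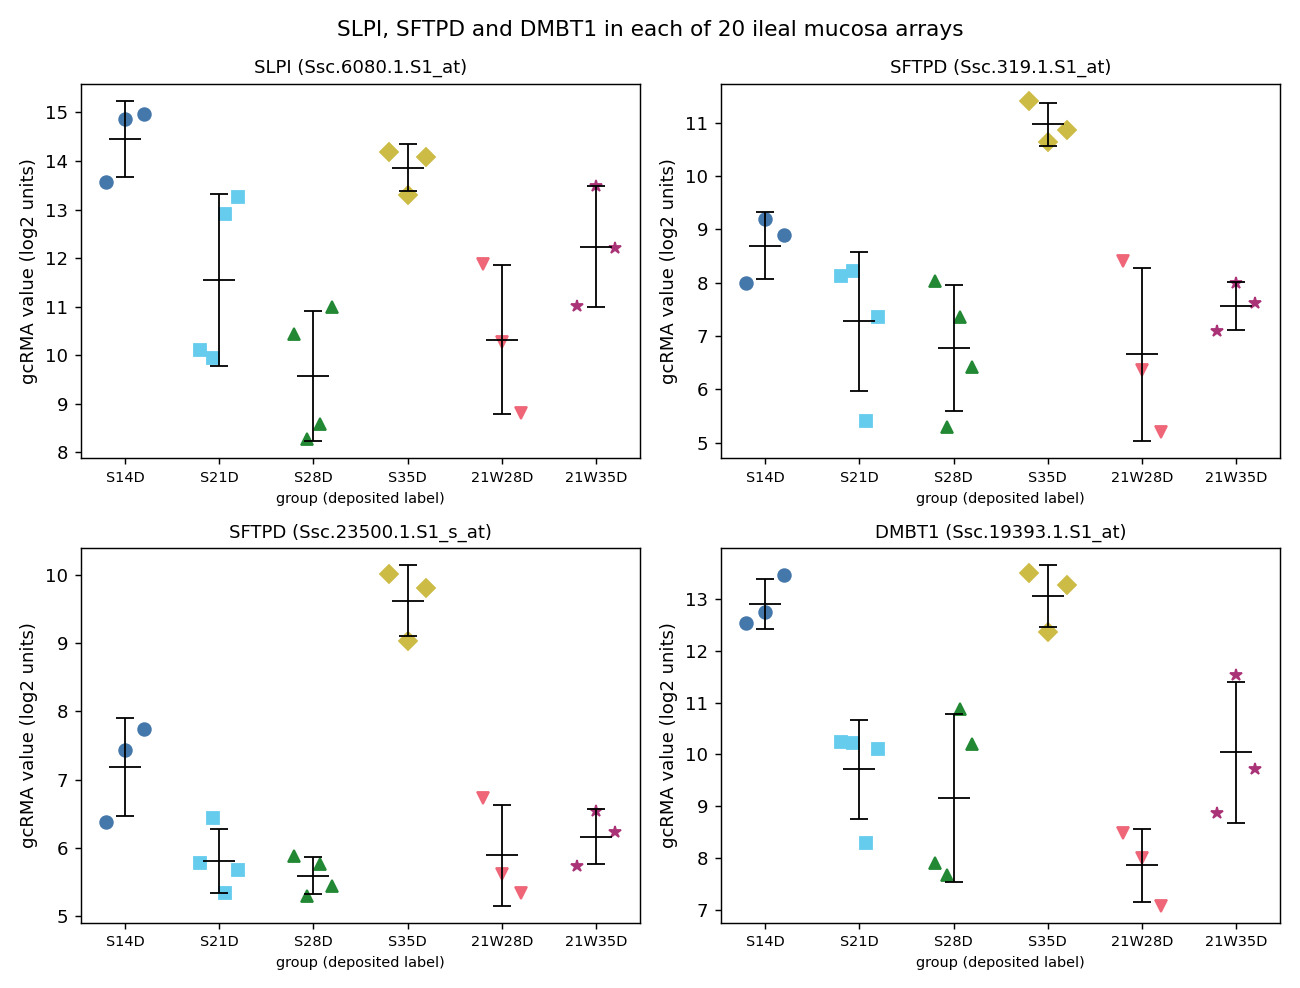
Values of the 4 probe sets (y axis, log2 units) in each array by deposited group label (x axis), with points for piglets and bars for the group mean ± 1 SD. The arrays labelled S35D were above all other arrays on both SFTPD probe sets, whereas they overlapped with S14D for SLPI and DMBT1.

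Over the 20 arrays the 4 probe sets covered 6.68 (SLPI), 6.21 and 4.71 (SFTPD) and 6.44 (DMBT1) log2 units. The arrays that chose the genes take part in these ranges. Some piglets stood out on all 4 at once. Replicate 2 was the highest array of 21W35D on every one of them, and in the arrays labelled 21W28D replicate 1 was the highest and replicate 3 the lowest on every one. S21D replicate 3 differed, since it was the lowest of its group for SFTPD and DMBT1 but had an SLPI value of 12.91.

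From 14 to 21 days of age, DMBT1 and 1 SFTPD probe set fell. DMBT1 changed by -3.20 log2 units (SE 0.82), a 9.21-fold lower level at 21 days (limma, adjusted p = 0.0201), and its lowest S14D array was 2.29 units above the highest S21D array. SFTPD (_s_at) changed by -1.37 (SE 0.39, limma, adjusted p = 0.0330), although the groups overlapped. The other SFTPD probe set gave nearly the same difference, -1.42, with a wider error (SE 0.81, 95% interval -3.15 to 0.31) and missed the threshold (limma, adjusted p = 0.276). On SFTPD (_s_at) the S21D values, from 5.33 to 6.44, reached down close to its lowest value, 5.30. Whether compression of dim values narrowed its error was not tested. SLPI differed by -2.91 (SE 0.99, 95% interval -5.03 to -0.79), and its groups did not overlap, but it also missed the threshold (limma, adjusted p = 0.0624). The background was wide: at an adjusted p under 0.05, 7.27% of the 23999 tested probe sets were higher and 7.63% lower in S21D piglets than in S14D piglets, against 2 of the 4 probe sets here, both lower.

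These calls rested on single piglets. The DMBT1 call was lost without S14D replicate 2 (limma, adjusted p = 0.0638), S14D replicate 3 (0.106) or S21D replicate 3 (0.0624). The SFTPD call was lost without any of these (limma, adjusted p = 0.114, 0.170 and 0.0942) and also without S21D replicate 1 or 4 (0.0688 and 0.0692). That call was also lost with only the compared groups in the fit (limma, adjusted p = 0.104), with the replicate number as a block (0.0870) and with the methods' t-test after Benjamini-Hochberg adjustment (0.0985). SLPI passed without S21D replicate 4 (limma, adjusted p = 0.0459), with the filter on dim probe sets (0.0284) and with each array centred on its median (0.0498). The differences of all 4 probe sets were below 0 under every alternative that was run.

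Markers of several cell types moved over the same days. The summed level of 11 measured epithelial markers was 0.38 log2 units lower at 21 days (between 16.84 and 17.11 in S14D arrays and between 16.35 and 16.81 in S21D arrays), with 0 of 11 called. That of 9 measured ileal enterocyte markers was 0.07 higher (between 17.25 and 17.80 in S14D arrays and between 17.26 and 17.99 in S21D arrays), with 2 of 9 called higher. A sum of linear values weighs bright markers most, and the median difference of these 9 was -0.18. Single enterocyte markers moved both ways, with FABP6 going from 13.84 to 15.82 and APOA4 from 10.57 to 7.13. Of 6 enteroendocrine markers 3 were called lower. The summed level of the 2 measured B cell markers, CD79B and BLNK, was between 12.27 and 13.47 in S14D arrays and between 13.99 and 14.44 in S21D arrays (1.29 higher), with 1 of 2 called higher. Of the macrophage markers 3 of 5, and of the T cell markers 4 of 8, were called higher. The 5 measured neutrophil markers (S100A8, S100A9, S100A12, ELANE and LTF) were under 4 in every array. Over the 20 arrays the correlation with the summed epithelial markers was 0.75 for SLPI, 0.76 and 0.70 for SFTPD and 0.60 for DMBT1, and with the summed B cell markers -0.74, -0.72, -0.71 and -0.72. Other lists came close, with -0.69, -0.69, -0.70 and -0.72 for erythrocyte markers and 0.73, 0.59, 0.50 and 0.62 for enteroendocrine markers. The arrays that chose the genes take part in these values. For deviations from the group means they were 0.55, 0.72, 0.72 and 0.31 with epithelial markers and -0.41, -0.62, -0.80 and -0.45 with B cell markers. Other lists again came close, with -0.46, -0.57, -0.80 and -0.67 for erythrocyte markers and 0.53, 0.70, 0.65 and 0.36 for enteroendocrine markers. Each pair of values comes from the same array, and the part of tissue composition in the differences of the members was not tested.

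None of the 4 probe sets was called in the comparisons around weaning with limma. From S21D to the arrays labelled 21W28D the differences were -1.24 for SLPI (95% interval -3.36 to 0.88), -0.62 and 0.09 for SFTPD (-2.35 to 1.11 and -0.76 to 0.93) and -1.86 for DMBT1 (-3.61 to -0.11). DMBT1 alone was below an unadjusted p of 0.05 (0.0389; limma, adjusted p = 1). Here 0 of all tested probe sets were called, against 606 at an unadjusted p under 0.05, so the comparison as labelled gave no calls for any gene. Once these 2 labels were exchanged, the differences were 2.31, 3.69, 3.81 and 3.34, and 3 of the 4 probe sets were called higher after weaning. The share of all tested probe sets called with these labels exchanged was not counted. The arrays labelled S35D are among those that chose the genes, so these calls are not support for a rise.

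At 14 days after weaning no member was called against S21D. The differences from S21D to 21W35D were 0.68 for SLPI (95% interval -1.44 to 2.80), 0.29 and 0.36 for SFTPD (-1.44 to 2.02 and -0.49 to 1.204) and 0.32 for DMBT1 (-1.43 to 2.08), with every pair of groups overlapping. These intervals still allow more than 2-fold changes either way on 3 of the 4 probe sets. For DMBT1 the sign turned without S21D replicate 3 (-0.15) or 21W35D replicate 2 (-0.42), and for SFTPD (_at) without S21D replicate 3 (-0.33). Over all tested probe sets 0.263% were called higher and 0.0333% lower.

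From the arrays labelled 21W28D to 21W35D, DMBT1 differed by 2.19 (SE 0.88, 95% interval 0.31 to 4.06) and its groups did not overlap, with a gap of 0.40. It was below an unadjusted p of 0.05 (0.0252) but missed the adjusted threshold (limma, adjusted p = 0.495). SLPI differed by 1.92 (95% interval -0.35 to 4.19, limma, adjusted p = 0.569). The SFTPD probe sets differed by 0.91 (-0.94 to 2.76) and 0.27 (-0.63 to 1.17). The background was 0.0667% of probe sets higher and 0.0125% lower. With the labels exchanged all 4 differences turned, to -1.62, -3.40, -3.45 and -3.02.

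The comparison that chose the genes, S28D against the arrays labelled S35D, is described here without a test. SLPI was 4.29 log2 units higher in the arrays labelled S35D (19.5-fold), SFTPD 4.19 and 4.03 (18.3-fold and 16.3-fold) and DMBT1 3.90 (14.9-fold), and the groups did not overlap on any of the 4. In this comparison 3.53% of all tested probe sets were called higher and 3.01% lower. The epithelial marker sum was 0.69 higher, with 3 of 11 markers called higher, the ileal enterocyte sum 0.68 higher, with 0 of 9 called, and the B cell marker sum 1.18 lower in the arrays labelled S35D, and their part in these values was not tested. With the labels exchanged the values became 0.75, -0.12, 0.30 and -1.31.

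The 2 high groups were not alike for all genes. The arrays labelled S35D differed from S14D by -0.60 for SLPI and 0.14 for DMBT1, with overlapping values, but were 2.27 and 2.44 higher on the SFTPD probe sets, with no overlap. From the arrays labelled S35D to 21W35D the differences were -1.62 for SLPI, whose groups overlapped, -3.40 and -3.45 for SFTPD and -3.02 for DMBT1, whose groups did not. Of all tested probe sets 0.0292% were called higher and 0.0167% lower there. These comparisons share the arrays labelled S35D.

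In the remaining descriptions every pair of groups overlapped. From S21D to S28D the differences were -1.98 for SLPI, -0.50 and -0.21 for SFTPD and -0.55 for DMBT1 (background 0.00417% higher and 0% lower). From S28D to the arrays labelled 21W28D, suckling and weaned piglets of the same age, they were 0.75, -0.12, 0.30 and -1.31, and 0% of probe sets were called.

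**Figure D2:**
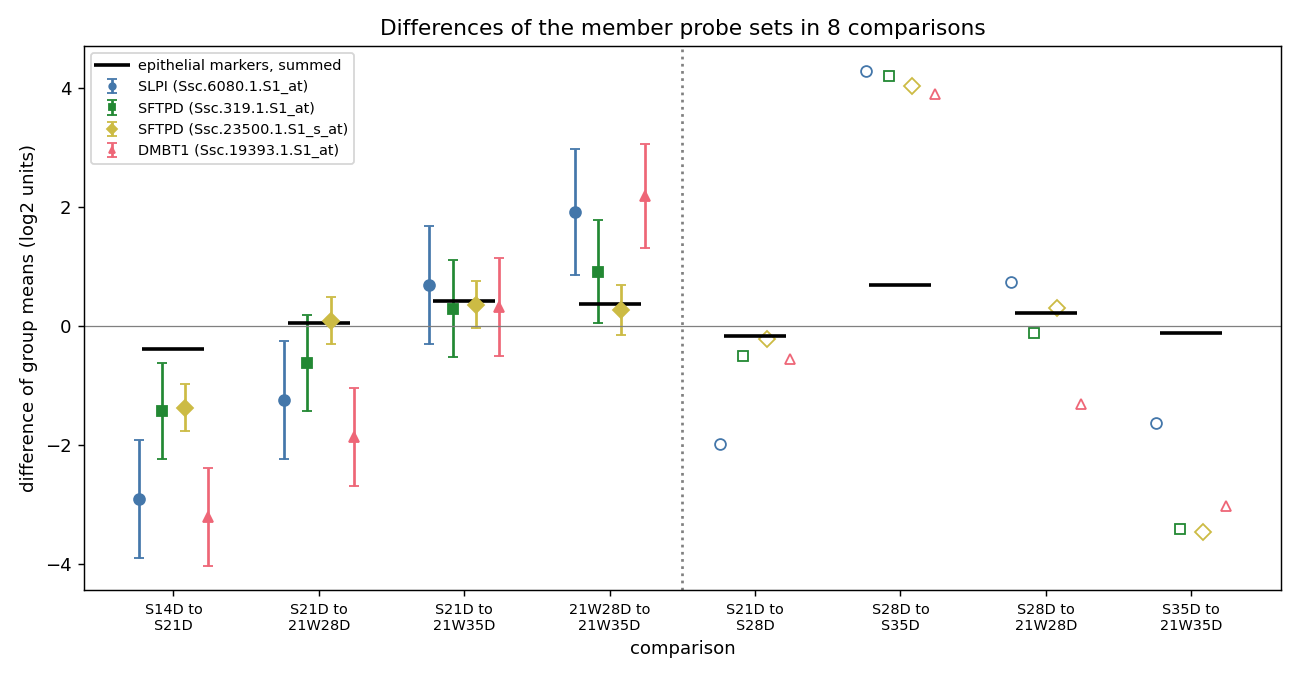
Difference of group means (y axis, log2 units, later or weaned group minus the other) of the 4 probe sets in 8 comparisons (x axis), with filled points and ± 1 SE bars for the 4 tested comparisons, open points for the 4 described without a test, and black lines for the summed epithelial markers. All 4 probe sets lay below 0 from S14D to S21D and near 4 from S28D to the arrays labelled S35D.

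The SFTPD probe sets followed each other over the 20 arrays, with a Pearson correlation of 0.93 and a Spearman correlation of 0.96. It was 0.85 over the 17 arrays without those labelled S35D, and 0.80 for deviations from the group means. The points share RNA and array. The slope of SFTPD (_s_at) on SFTPD (_at) was 0.78. The _at value minus the _s_at value of an array ran from -0.13 in 21W28D replicate 3 to 2.35 in S21D replicate 1. It was near 0 in 3 arrays, the 2 others being S21D replicate 3 (0.07) and S28D replicate 2 (-0.01), which were the piglets with the lowest values on SFTPD (_at).

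The spread between piglets was wider on SFTPD (_at) than on SFTPD (_s_at) in 3 groups and close in the others. The SD of SFTPD (_at) and SFTPD (_s_at) was 1.30 and 0.46 in S21D, 1.19 and 0.27 in S28D, and 1.62 and 0.74 in the arrays labelled 21W28D. These 3 groups had the lowest means on SFTPD (_s_at), and the part of dim-signal compression in its smaller spread was not tested. In S14D it was 0.63 and 0.72, in the arrays labelled S35D 0.40 and 0.52, and in 21W35D 0.45 and 0.41. The difference from S14D to S21D agreed within 0.05 between the probe sets and that from S28D to the arrays labelled S35D within 0.17. The widest gap, 0.71, was from S21D to the arrays labelled 21W28D, where the signs differed.

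**Figure D3:**
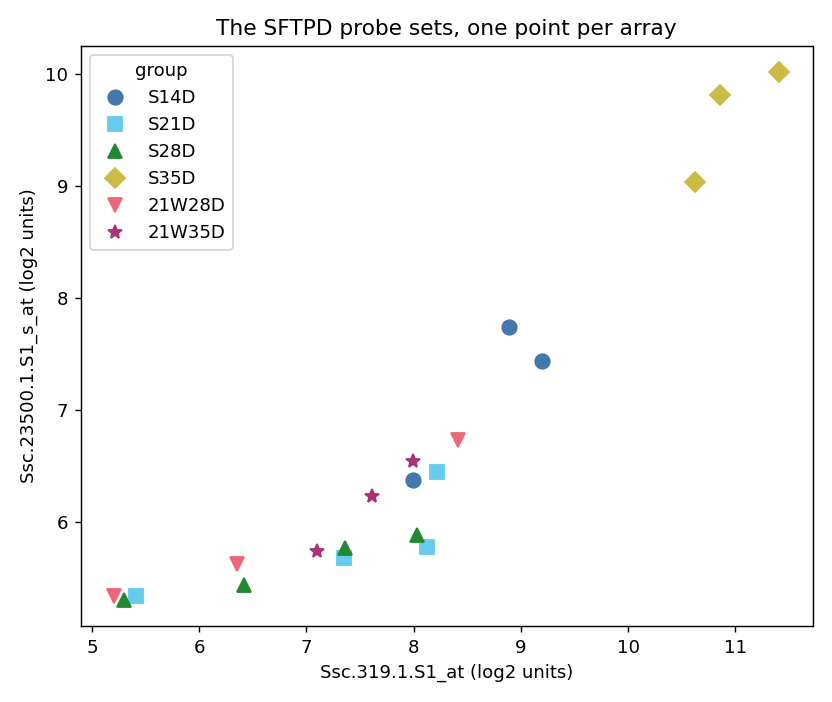
Values of the SFTPD probe sets with the suffix _at (x axis, log2 units) and _s_at (y axis, log2 units), with 1 point per array and a marker for each of the 6 groups. The arrays labelled S35D lie apart at the upper right, and among arrays below 8 on the x axis the y values stay between 5.30 and 6.54.

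Across genes the correlations of the members were lower once both S14D and the arrays labelled S35D were left out. The arrays that chose the genes take part in these values. Over 20 arrays the Pearson correlation of SLPI with SFTPD was 0.64 and 0.66, that of SLPI with DMBT1 was 0.75, and that of SFTPD with DMBT1 was 0.81 and 0.78. Over the 17 arrays without those labelled S35D these were 0.56 and 0.70, 0.68, and 0.72 and 0.75. Over the 14 arrays left without S14D as well they were 0.30 and 0.38, 0.35, and 0.58 and 0.44. Of deviations from the group means they were 0.20 and 0.33, 0.21, and 0.55 and 0.54.

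Among 6648 probe sets of other genes at 4 log2 units or more in at least 3 arrays, those with the pattern most like SLPI by Pearson correlation over the 20 arrays were C9H11orf52 (0.92), TCN2 (0.92), KDELR1 (0.91), VPS28 (0.90) and CLCN5 (0.90). TCN2 encodes a cobalamin carrier, KDELR1 a receptor that returns proteins to the endoplasmic reticulum, and CLCN5 a chloride and proton exchanger of endosomes. For SFTPD (_at) they were ELOVL1 (0.89), OLFM4 (0.88), TMEM254 (0.87), CCL28 (0.86) and SLC35C1 (0.86). OLFM4 is known in human as a marker of crypt cells, and CCL28 is a mucosal chemokine. For SFTPD (_s_at) they were MUT (0.91), ELOVL1 (0.90), AP1S1 (0.88), MCFD2 (0.88) and VKORC1L1 (0.88), so that only ELOVL1 was near both. For DMBT1 they were SLC35F6 (0.88), RBP4 (0.88), CLCN5 (0.87), LMBRD2 (0.87) and MCFD2 (0.87), with CLCN5 also in the SLPI group. Within groups, the correlation of deviations was 0.92 for OLFM4 and 0.89 for CCL28 with SFTPD (_at), and 0.86 for CLCN5 with SLPI.

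**Figure D4:**
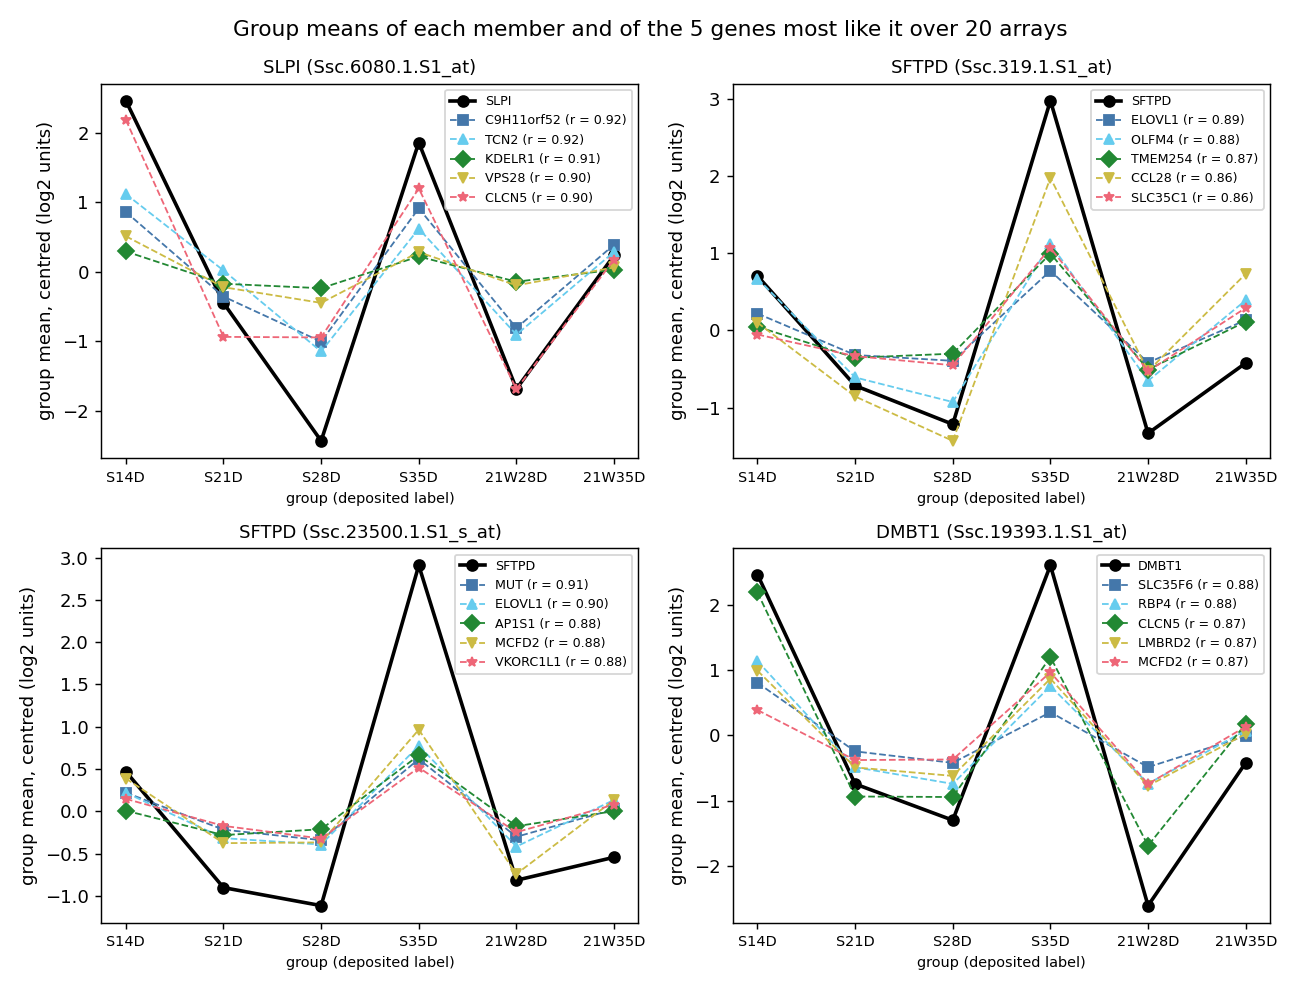
Group means (y axis, log2 units, each probe set centred on the mean of its 6 group means) of the members and of the 5 genes most like each of them over 20 arrays, by deposited group label (x axis), with Pearson correlations in the keys. No gene shown had as wide a range of group means as its member.

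Of the genes in lists of related families and pathways, 93 besides the members were measured, and 31 of these were under 4 log2 units in every array. From S14D to S21D 6 were called higher and 6 lower, with a median difference of 0, the same as over all probe sets. These shares are near those over all probe sets in this comparison (7.27% higher and 7.63% lower), and the counts are no result about the families as such. The 17 antiproteases listed beside SLPI are inhibitors of several families. Among them PI3, which encodes the elastase inhibitor elafin, rose by 2.22 (from 9.38 to 11.61, limma, adjusted p = 0.0413), opposite in sign to SLPI. CSTB, a cysteine protease inhibitor, and SPINT2, a Kunitz-type serine protease inhibitor, fell by 1.01 and 1.14. Of 8 genes listed as surfactant proteins or soluble lectins, galectins among them, 0 were called. SFTPA1, the surfactant protein A gene, was at 2.08 in every array, and SFTPB, SFTPC, MBL2 and FCN1 were under 4 in every array. This count therefore says little about the relatives of SFTPD. Of 4 scavenger receptor cysteine-rich genes besides DMBT1, SCARA5, a ferritin receptor, fell by 2.92.

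Genes tied to surfactant protein D were called in both directions. SIRPA, a receptor for its lectin domain, rose by 1.70 and LY96, the lipopolysaccharide coreceptor, by 2.65. LGMN, an asparaginyl protease of lysosomes, fell by 2.20 and PLOD1, a lysyl hydroxylase of collagenous proteins, by 1.84, which left 7 of the 11 measured uncalled. Of 24 other secreted antimicrobial genes CXCL14 (1.52) and JCHAIN (2.00), the joining chain of secreted antibodies, were called higher, and LBP, which binds lipopolysaccharide, fell by 3.03. SAA2, an acute phase protein, was the 1 gene of 17 called in the epithelial response list, 1.84 higher. The count of 12 calls fell to 5 without S14D replicate 2 or 3 and to 7 without S21D replicate 3 or 4, and was 21 without 21W35D replicate 2.

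In the other comparisons few of these 93 genes were called. From S21D to 21W35D TFF2, a mucus-associated trefoil peptide, rose by 3.29 (from 7.46 to 10.75, limma, adjusted p = 0.0330). That call was lost without any 1 of the 4 S21D arrays or without 21W35D replicate 3, and the count was 2 without 21W28D replicate 3 and 3 without 21W35D replicate 2. From S28D to the arrays labelled S35D 12 were called higher and 0 lower beside the 3.53% of all probe sets called higher, among them CCL28 (3.41), TFF2 (3.19), SERPINA1 (2.21), PIGR, the transporter of secreted antibodies (1.83), LGMN (1.76), PRSS8 (1.53) and LGALS3 (1.21). SERPINA1 was dim, at 4.55 ± 1.85 (SD, n = 3; between 2.88 and 6.54) in the arrays labelled S35D and at group means between 2.24 and 2.43 elsewhere. The count of 12 became 1 without S35D replicate 1, 2 without S35D replicate 3 or S28D replicate 2, and 6 without S28D replicate 3, and with the labels exchanged it was 0. In the other 5 comparisons 0 of the 93 were called with limma.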

How the data were processed

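Scraped ileal mucosa of 20 piglets was measured on Affymetrix Porcine Genome Arrays, 1 array per piglet. According to the methods and the submitters' processing notes (GCOS 1.2, GCRMA), the authors normalised the arrays with gcRMA, so the deposited values are log2 values after background correction by probe composition, quantile normalisation and summary per probe set. gcRMA compresses dim probe sets toward a floor, and differences of low values are understated. Array depth has no equivalent of read counts, and the number of arrays limits the precision. The base of the logarithm was taken from the range of the values, 2.08 to 16.41.

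Of 24123 probe sets, 124 controls were left out and 23999 were tested. Of these, 10069 had 1 gene symbol in the platform annotation, 198 had several and 13732 had none. limma 3.58.1 in R 4.3.3 (lmFit and eBayes) was fitted to all 20 arrays with 6 group means and no block. p-values were adjusted by Benjamini-Hochberg over all tested probe sets, and a probe set was called at an adjusted p under 0.05. Standard errors and 95% intervals come from this fit. p-values measure the spread between piglets, and the litter of each piglet is not given. According to the paper the piglets came from the litters of a few sows, so littermates were treated as independent in the fit. A gene with several probe sets was represented by the brightest over all arrays. Marker sums are log2 of summed linear values.

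The members and gene lists were chosen with earlier results of these data known. The genes named are the members, the 5 genes most correlated with each, up to 4 called genes of each list with the largest differences, and markers. Replicate numbers did not pair the arrays. Alternatives were a filter on dim probe sets, only the compared groups in the fit, a trended robust variance, median centring, repeated quantile normalisation, a replicate block, exchanged labels, the methods' t-test, a 2-fold minimum, means of probe sets, and each array left out. Leaving out both groups with labels in doubt was chosen after seeing the data. The script was tested on simulated data. Sequences and coordinates were not used here, and the order of genes on the chromosomes came from RefSeq genes on Sscrofa11.1. Figures were drawn with matplotlib 3.10.9.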

Additional observations from a re-analysis of the deposited data

Results flagged for a closer look

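In S21D, replicate 3 had a DMBT1 value of 8.28 log2 units, far from the other 3 arrays of its group (10.10 to 10.25) by the gap between neighbouring values relative to the range of the group. It was 1 of 8 groups of 4 arrays checked on the 4 probe sets, and chance alone marks about 1 in 20. The same array had an SFTPD value of 5.41 on the probe set with the suffix _at, the lowest of its group, and an SLPI value of 12.91, the second highest. Without it the DMBT1 difference from S14D to S21D was -2.73.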

How the results depend on the processing

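From S14D to S21D, 2 members were called. The count was 1, with SFTPD (_s_at) lost, with only the compared groups in the fit, with the replicate block and with the methods' t-test after Benjamini-Hochberg, and 0 to 2 with 1 array left out. The 12 list genes called there became 24 with the filter on dim probe sets and 19 with means of probe sets (5 to 21 with 1 array left out). From S21D to 21W35D, 1 list gene became 2 with the filter or median centring, and 0 with only the compared groups, the replicate block or both groups in doubt left out (0 to 3 with 1 array left out). From S28D to S35D, 12 list genes became 1 with only the compared groups, 7 with the replicate block and 0 with labels exchanged (1 to 18 with 1 array left out). From 21W28D to 21W35D and from S35D to 21W35D, 0 list genes became up to 2 and 1. The replicate block changed no other count of calls by over 1.5 times. Deviations of the 46 same-numbered pairs had a median correlation of 0.04, with 18 pairs over 0.1 and 19 under -0.1. An array of the same number was the best match for 6 of 20 arrays, so the arrays share only a number.

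Exchanging the labels of S35D and 21W28D changed the most. From S21D to 21W28D it gave 3 called members and 6 list genes, with differences of 2.31 (SLPI), 3.69 (SFTPD, _at), 3.81 (SFTPD, _s_at) and 3.34 (DMBT1). From 21W28D to 21W35D it gave 1 called member and differences of -1.62, -3.40, -3.45 and -3.02 in the same order, from S35D to 21W35D 1.92, 0.91, 0.27 and 2.19, and from S28D to S35D 0.75, -0.12, 0.30 and -1.31. From S28D to 21W28D it gave 12 list genes and 4.29, 4.19, 4.03 and 3.90. These follow from the exchange itself. The share of all probe sets called from S21D to 21W28D after the exchange was not counted. From 21W28D to 21W35D the exchange compares the arrays labelled S35D with 21W35D, where 0.0292% of probe sets were called higher and 0.0167% lower. From S28D to 21W28D it compares S28D with the arrays labelled S35D, where 3.53% were called higher and 3.01% lower. The methods' t-test called 1 member (DMBT1) from S21D to 21W28D before adjustment.

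Leaving out 1 array turned the sign of 5 tested differences, none of them called, and of 3 described ones. From S21D to 21W28D, SFTPD (_at) ran from -1.495 to 0.11 (above 0 without 21W28D replicate 3) and SFTPD (_s_at) from -0.33 (without 21W28D replicate 1; -0.07 without S21D replicate 3) to 0.37. From S21D to 21W35D, SFTPD (_at) ran from -0.33 (without S21D replicate 3) to 0.61, and DMBT1 from -0.42 (without 21W35D replicate 2; -0.15 without S21D replicate 3) to 0.91. From 21W28D to 21W35D, SFTPD (_s_at) ran from -0.0088 (without 21W28D replicate 3) to 0.69. The described ones were from S28D to 21W28D, where SLPI ran from -0.03 to 1.503, SFTPD (_at) from -0.99 to 0.61 and SFTPD (_s_at) from -0.12 to 0.58. Of 488 tested differences across the alternatives 457 kept their direction and side of the threshold, and 356 of 368 described ones moved by less than the SD between piglets. Most alternatives left out 1 array, and a difference cannot change when that array lies outside the compared groups. Many tested differences also lay far from the threshold, so these counts do not measure how robust the results are. With 3 or 4 piglets a group, differences of 1.92 (SLPI) and 2.19 (DMBT1) did not pass.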

Other observations

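The genes beside the members in the Sscrofa11.1 gene order were described after their values were seen. PI3 and SPAI-2, both protease inhibitor genes, lie within 3 places of SLPI. PI3 was at 9.38 log2 units in S14D and 11.61 in S21D, and SPAI-2 at 14.37 and 13.81. TMEM254, directly beside SFTPD, was also among the 5 genes most like the SFTPD probe set with the suffix _at, with group means of 9.85 in the arrays labelled S35D and between 8.35 and 8.97 in the other groups. SFTPA1, 2 places from SFTPD on its other side, was at 2.08 in all 20 arrays. HTRA1, directly beside DMBT1, had group means between 10.09 and 10.55. On the other side of DMBT1, the spermadhesin genes AWN, AQN-1 and PSP-II were at 2.08 in every array.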
